A study of Caenorhabditis elegans with 2 samples.

Results

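The genes rpr-1 and ints-8 of Caenorhabditis elegans lie one inside the other, 2 of 46926 annotated genes, and shared 1 of the strongest peaks of a chromatin immunoprecipitation of the T-box factor TBX-9. They were chosen by the signal, rank and position of that peak, so the signal values, ranks and positions of the peaks at the locus are given as a description with no test. All peaks that came within 1000 bp of either gene in the 4 lists on build ce11 were taken. The worms were whole young adults of strain OP636, genotype unc-119(tm4063) III; wgIs636, in which TBX-9 carries GFP and FLAG at its C-terminus. They were collected 63 hours after synchronization as starved L1 larvae and were of mixed sex. Chromatin was precipitated with an antibody to GFP from biological replicates 1 and 2, 2 libraries of 1 group, and a control named in the labels was not analysed here. Both libraries carry the transgene, the promoter that drives it is not given in the labels, and in chromatin of whole animals a site bound in few cells and a site bound weakly in many cannot be told apart.

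The gene rpr-1 encodes the RNA of RNase P, the ribonucleoprotein that cuts the 5′ leader from precursor tRNAs. Its relative mrpr-1 encodes the RNA of RNase MRP, which shares protein subunits with RNase P and acts in ribosomal RNA processing. The host gene ints-8 encodes a subunit of Integrator, the complex that cuts the 3′ ends of nascent small nuclear RNAs. In humans the RNase P RNA gene is transcribed by RNA polymerase III from a promoter upstream of its start, with a proximal sequence element and a TATA box, whereas tRNA genes carry their promoter within the gene. TBX-9 is a T-box transcription factor known for its part in embryonic morphogenesis.

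On ce11, rpr-1 (WBGene00045238, noncoding RNA) runs from 13463955 to 13464207 on the plus strand of chromosome I and is 253 bp long. ints-8 (WBGene00013021) runs from 13455356 to 13470371 on the minus strand, 15016 bp, and has 2 annotated transcripts. Isoform a has 10 exons and starts 6164 bp beyond the end of rpr-1, and isoform b has 6 exons and starts 639 bp beyond it. The RNA gene lies antisense in an intron that both isoforms use, from 13462739 to 13464761 and 2023 bp long, which is intron 5 of isoform a and intron 1 of isoform b. It stands 1216 bp from one end of that intron and 554 bp from the end nearer the start of isoform b. The other annotated genes within 1000 bp are Y48G10A.3 (WBGene00013020), a protein-coding gene whose end lies 221 bp upstream of isoform a, and the noncoding Y48G10A.9 (WBGene00220171), 377 bp away within it.

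Peaks that passed a threshold of irreproducible discovery rate (IDR), a measure of how well the libraries rank a peak alike, form a list of 169, called the IDR list. The relaxed lists, which hold weak peaks and background as well, numbered 25659 peaks in replicate 1, 30000 in replicate 2 and 30000 in the pooled libraries. Signal is the authors' own value for each peak, its scaling for depth is not stated, and it is used only within a list. In the pooled and replicate 1 lists, 10 and 14 peaks were mitochondrial and the replicate 2 list had 0, so ranks are among nuclear peaks unless stated. Read counts were not part of the files used, so the depth is unknown.

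One IDR peak lay at the locus. It ran from 13463773 to 13464162, 390 bp, had a signal of 298.3 and ranked 2 of 169, at 2.36 times the list's median signal of 126.4. It was the strongest of the 20 IDR peaks on chromosome I. A protein-coding gene had an IDR summit within 1000 bp of its body in 1.13% of cases, and a gene of any biotype but piRNA in 1.26%. As the rule used these lists, nothing is read from those shares for rpr-1 and ints-8, which share the 1 peak. The next IDR peak to the left on chromosome I stood 809 kb away with a signal of 113.6 and rank 135, and the next to the right stood 489 kb away with a signal of 155.2 and rank 38.

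The peak at rpr-1 was among the strongest nuclear peaks of each library. In replicate 1 it ran from 13463872 to 13464030, with a signal of 162.6, rank 2 of 25645 and 8.84 times the list's median of 18.4. In replicate 2 it ran from 13463876 to 13464016, with a signal of 115.5, rank 3 of 30000 and 8.79 times the list's median of 13.1. In the pooled list it ran from 13463847 to 13464050, with a signal of 273.7, rank 3 of 29990 and 10.9 times the median of 25.1. The lists were cut at different lengths, so each multiple of a median holds for its own list. With mitochondrial peaks counted the ranks were 15, 3 and 12. Of the IDR peaks, 2 stood within the first 3 nuclear ranks of both replicates, this peak and that of the snoRNA gene ZK994.7.

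The deposited q-value separated the rpr-1 peak from others much less than the signal did. Its q-value was 0.0273 in replicate 1, 0.00811 in replicate 2 and 0.0137 in the pooled list. Each is the smallest in its list and is shared by 1082, 1295 and 841 peaks. In the IDR list the q-value of 0.0467 was shared by 54 peaks.

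**Figure D1:**
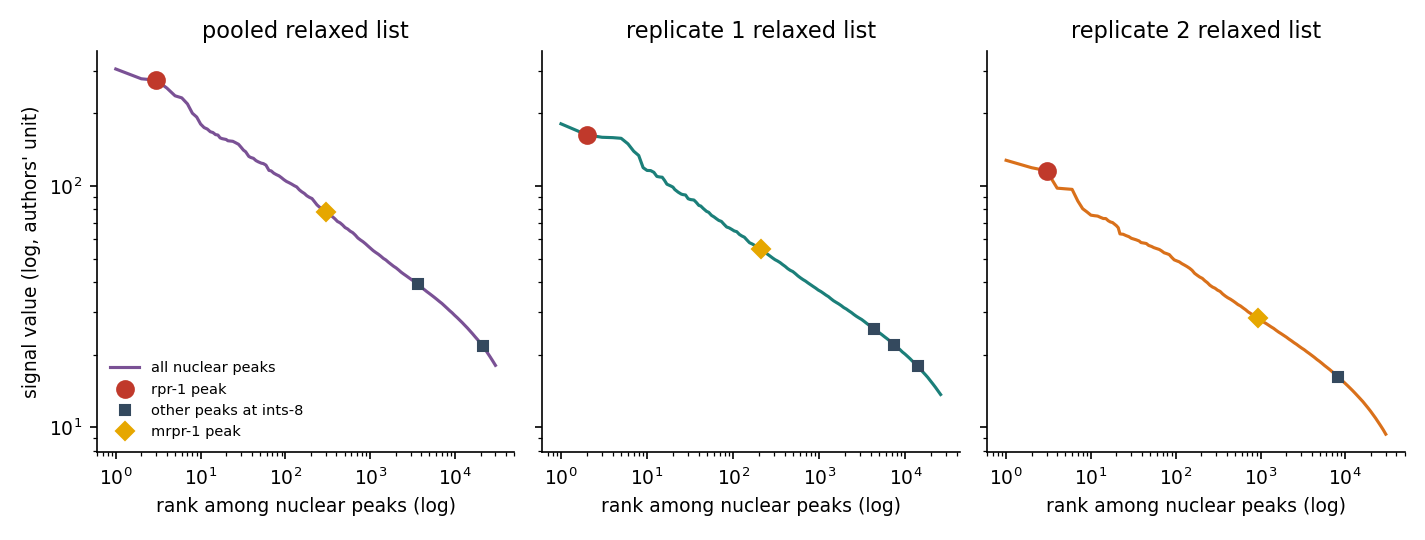
Signal of each nuclear peak (log axis, authors' unit) against its rank (log axis) in the pooled, replicate 1 and replicate 2 relaxed lists, with the rpr-1 peak (circle), the other peaks within 1000 bp of ints-8 (squares) and the mrpr-1 peak (diamond) marked. The rpr-1 peak sits at ranks 3, 2 and 3, and every other marked peak lies at rank 213 or beyond.

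The summits fell just inside rpr-1, near its start. The IDR and pooled summits lay at 13463968, 13 bp into the gene. The replicate 1 summit lay 32 bp in and the replicate 2 summit 17 bp in, 15 bp apart. Both replicates had a peak at 168 of the IDR peaks, with summits a median of 38.5 bp apart, quartiles of 16 and 78.2 bp, and 41 peaks (24.4%) were at or under 15 bp. The relaxed peaks at rpr-1 were also narrower than the usual 390 bp, 159 bp in replicate 1, 141 bp in replicate 2 and 204 bp in the pool. Narrower peaks numbered 18, 7 and 32 in those lists. All 141 bp of the replicate 2 peak lay within the replicate 1 peak, and 76 bp and 62 bp of the peaks of replicates 1 and 2 lay in rpr-1, with the remainder upstream of it.

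Measured from the host gene, the same summits were remote from any start. The IDR summit lay 878 bp into ints-8 from the start of isoform b and 6403 bp from that of isoform a, in an intron of both. For replicate 1 the distances were 859 and 6384 bp, and for replicate 2 they were 874 and 6399 bp. No list had a summit within 250 bp of the start of isoform b.

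**Figure D2:**
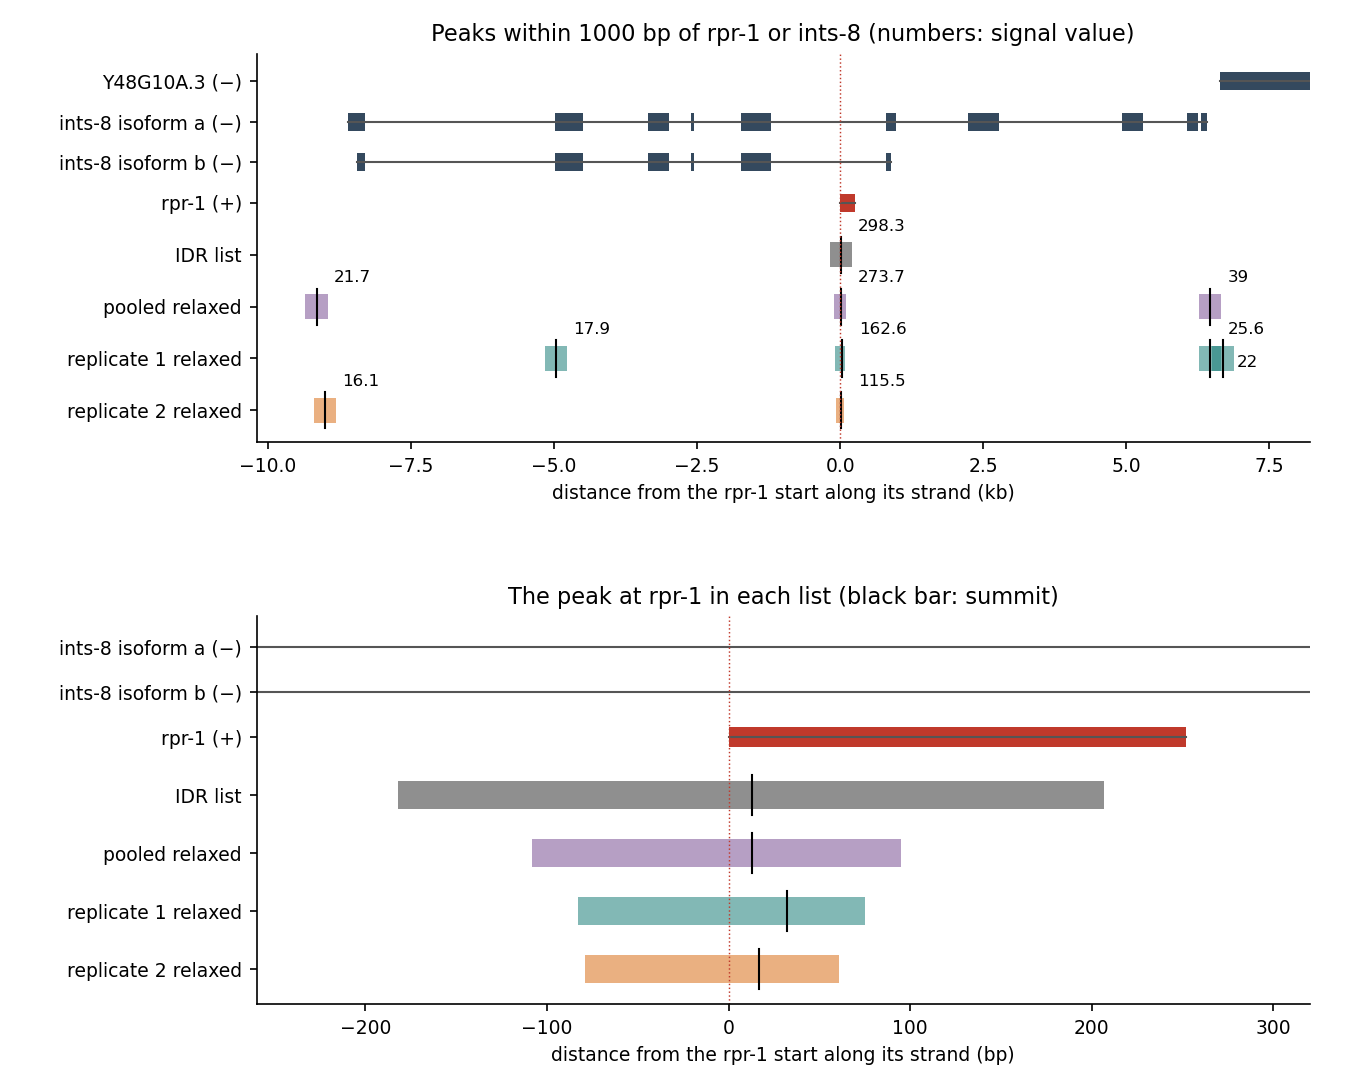
Upper panel, all peaks of the 4 lists within 1000 bp of rpr-1 or ints-8, with their signal values, drawn to scale against the distance from the rpr-1 start in kb, exons as boxes and summits as black bars. Lower panel, the rpr-1 peak in each list in bp, where the summits stand 13, 13, 32 and 17 bp into the gene.

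The other peaks at ints-8 were weak and differed between the libraries. The locus held 3 peaks in the pooled list, 4 in replicate 1 and 2 in replicate 2, and the rpr-1 peak was 7.01, 6.36 and 7.15 times as high as the next of them. At the start of isoform a, a peak from 13470225 to 13470614 had its summit 49 bp upstream of the start, between ints-8 and Y48G10A.3. Its signal was 39.0 in the pooled list, rank 3646 and 1.55 times the median, and 25.6 in replicate 1, rank 4376 and 1.39 times the median. Replicate 2 had no peak there. Of protein-coding transcript starts, 20.1% had a summit within 250 bp in the pooled list, 17.6% in replicate 1 and 18.6% in replicate 2, against 0.175% in the IDR list.

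The remaining calls lay at or below this level. In replicate 1, a summit 267 bp upstream of isoform a, in an exon of Y48G10A.3, had a signal of 22.0 and rank 7382, and a summit in an exon of ints-8 had a signal of 17.9 and rank 13841. Past the 3′ end of ints-8, replicate 2 had a peak whose near edge lay 214 bp away, with a signal of 16.1 and rank 8278, and the pooled list had 1 whose near edge lay 358 bp away, with a signal of 21.7 and rank 21327. The q-values of all these weak peaks, that at isoform a included, ran from 0.186 to 0.852. Just outside the limit of 1000 bp stood 1 replicate 1 peak, 1327 bp from ints-8 in an exon of Y48G10A.3, with a signal of 28.8 and rank 2691.

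No other peak of such strength was listed near rpr-1 along the chromosome. Peak lists do not show how signal runs between the peaks. Within 25 kb of the rpr-1 start the IDR, pooled, replicate 1 and replicate 2 lists held 1, 3, 6 and 3 peaks. The rpr-1 peak was 7.01 times as high as the next in the pooled list, 5.64 times in replicate 1 and 7.15 times in replicate 2. In replicate 2 the nearest peak on the far side of isoform a lay 23700 bp from the rpr-1 start, with a signal of 15.8.

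The 5 IDR peaks most like the rpr-1 peak in their nuclear ranks in both replicates lay, by closest gene start, at snoRNA genes and at mdt-26. The RNAs of snoRNA genes guide chemical modification of other RNAs. Of all snoRNA genes, 9.83% had an IDR summit within 250 bp, against 1.43% of all noncoding genes. Likeness was the distance between the pairs of log10 ranks, over the 2 libraries. The peak at ZK994.7 on chromosome V was closest at 0.349, with ranks 1 and 2, a signal of 311.5 and its summit 21 bp upstream of the gene. A peak 583 bp into mdt-26 on chromosome II, a Mediator subunit gene, followed at 0.417, with ranks 5 and 4 and a signal of 263.6. A weaker IDR peak of mdt-26, with a signal of 107.3, overlaps the same relaxed peaks and so has the same distance. The snoRNA genes T03F7.8 and C51F7.4 came next, at 0.622 and 0.675, with signals of 243.0 and 278.2. In the order of signal, ZK994.7 stood directly above rpr-1 and C51F7.4 directly below it.

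The other gene for an RNA of this enzyme family, mrpr-1 (WBGene00045095, chromosome II, 7200233 to 7200418, plus strand), had relaxed peaks in every list and no IDR peak. Its signal was 54.6 in replicate 1 at rank 213, 28.3 in replicate 2 at rank 942 and 78.1 in the pooled list at rank 301. These were 2.97, 2.15 and 3.11 times the list medians. The rpr-1 signal was 2.98, 4.09 and 3.50 times that of mrpr-1 in the same lists, higher in both libraries. As rpr-1 was chosen for its signal, that direction is not read as a result. The mrpr-1 summits lay 70, 154 and 86 bp into the gene, within its 186 bp, farther from the start than those of rpr-1 in each list.

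Protein subunits of RNase P and RNase MRP had peaks no stronger than rank 4952 in either library. The list of 9 genes held both RNAs and 7 protein-coding genes, popl-1, popl-4, popl-5, popl-7, H35B03.2, Y37E11AM.4 and Y62E10A.24. Among the 9, rpr-1 alone had an IDR summit within 1000 bp of its body. Only 1.26% of all genes but piRNA genes had one, so its absence at the other 8 is not read as a result about these genes. Relaxed summits lay at 8 in the pooled list, 6 in replicate 1 and 6 in replicate 2, against 65.4%, 61.6% and 66.6% of all genes but piRNA genes. The 7 other genes with a pooled peak had a median best rank of 15595, and the 5 others in each replicate had medians of 6598 and 5205. H35B03.2, the p30 subunit, had ranks 18663 and 4952, and popl-4, the p29 subunit, had ranks 6448 and 9510. popl-5, which encodes the POP5 subunit, had no peak in any list. popl-7 and Y62E10A.24 overlap and share 1 pooled peak, and neither had a peak in a replicate list.

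The other Integrator genes also had weaker peaks than that at rpr-1, as nearly any gene would, since that peak was chosen for its strength. Of 11 genes named as Integrator subunits, ints-8 alone had an IDR summit within 1000 bp, and that is the summit in rpr-1. Only 1.13% of all protein-coding genes had one, so its absence at the other 10 is not read as a result about Integrator genes. Relaxed summits lay at 8 of the 11 in the pooled list, 10 in replicate 1 and 10 in replicate 2, against 71%, 67.8% and 72.5% of protein-coding genes. The best ranks of the others had medians of 6146, 4627 and 2965. The strongest of them were ints-4 in replicate 1, rank 375 with a signal of 47.2 and a summit 47 bp past its start, and ints-5 in replicate 2, rank 1380. ints-4 ranked 2965 in replicate 2, and ints-2, the best other in the pooled list, had a signal of 50.9 and rank 1359. Without the rpr-1 peak, ints-8 itself had best ranks of 3646, 4376 and 8278 in the pooled, replicate 1 and replicate 2 lists, within the range of the other Integrator genes in each.

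**Figure D3:**
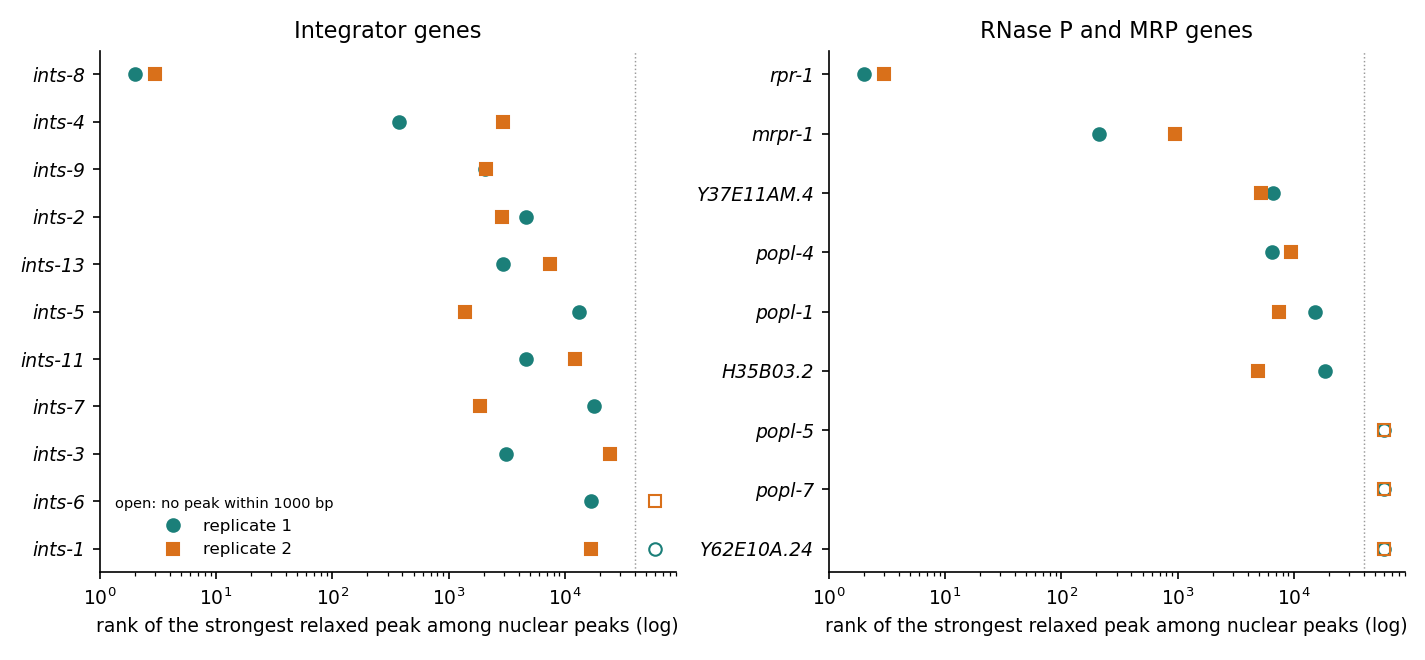
Rank among nuclear peaks (log axis) of the strongest relaxed peak within 1000 bp of each Integrator gene (left) and each RNase P or RNase MRP gene (right), in replicate 1 (circles) and replicate 2 (squares), with open symbols for genes with no peak. ints-8 and rpr-1 share the peak at ranks 2 and 3, mrpr-1 follows at 213 and 942, and every other gene is at rank 375 or beyond.

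The place of the summit in rpr-1 was set beside that at the noncoding genes near an IDR summit. A summit stood within 250 bp of 131 of 9132 such genes, or 1.43%. At 40 tRNA genes the summit lay a median of 14 bp past the start, with a range from -109 to 169 bp. At 34 snoRNA genes the median was -21.5 bp, that is upstream, with a range from -109 to 202 bp. At 4 snRNA genes the median was 141 bp, with a range from 86 to 213 bp. At 51 other noncoding RNA genes it was 84 bp, from -227 to 381 bp, and the 1 miRNA gene had -27 bp. The 13 bp of rpr-1 fell within the ranges of tRNA, snoRNA and other noncoding RNA genes and outside that of the snRNA genes. A summit within 13 bp of the start was found at 9 of the tRNA genes, 8 of the snoRNA genes, 0 of the snRNA genes and 2 of the other noncoding RNA genes. Neighbouring genes can share a summit, so these genes are not independent of each other.

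**Figure D4:**
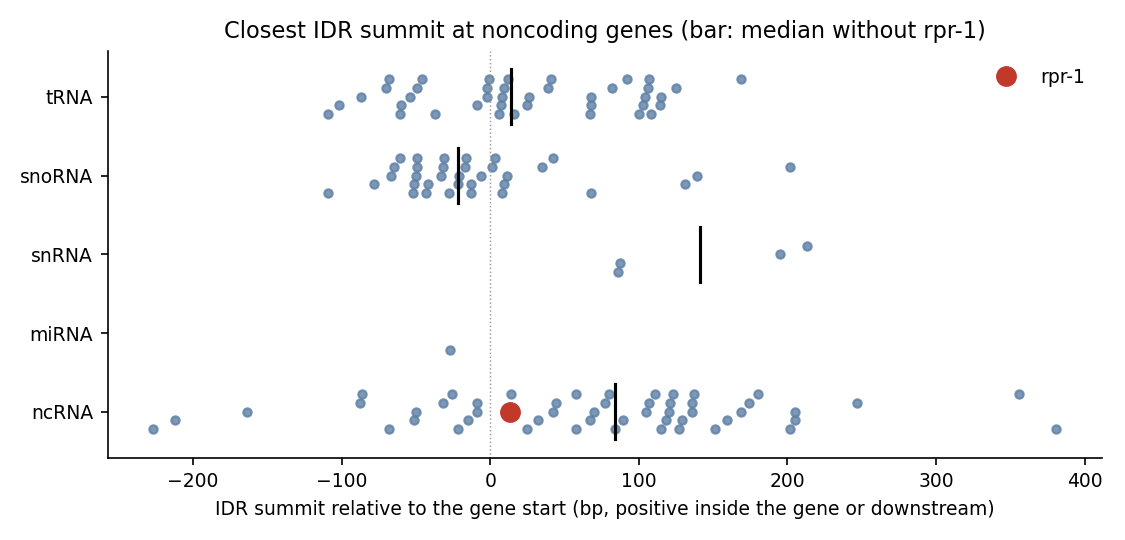
Position of the closest IDR summit relative to the gene start in bp (horizontal axis) for noncoding genes with a summit within 250 bp, by biotype, with each gene a small point, the median without rpr-1 a vertical bar and rpr-1 the large point at 13 bp. The tRNA and snoRNA points surround the start, and the 4 snRNA points lie between 86 and 213 bp.

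The 201 bp around the rpr-1 summit were rich in G and C. Their GC content was 58.7%, the highest of the 169 IDR windows, whose median was 44.8%. The median of the pooled relaxed windows was 39.8%, and 1.28% of them were at or above the rpr-1 window. None of the 360 words of 31 bases in the IDR peak occurred elsewhere in the genome. On either strand of the window, the T-box words AGGTGTGA, GGTGTGA and GGTGTG had no match, nor had TATAAA or GGTTCGA, a core of the tRNA B box. GGTGTGA is contained in AGGTGTGA, and GGTGTG in both. AGGTGTGA and GGTGTGA were in 0 of the IDR windows and in 0.453% and 1.73% of the pooled windows, and GGTGTG was in 7.1% and 6.07%. TATAAA was in 16.6% of the IDR windows and 16.4% of the pooled windows, and GGTTCGA in 16% and 2.78%. The absence of a match says only that these letters are not in the window, whose sequence, on chromosome I, is not shown.

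Upstream of rpr-1, on the strand of the gene, stood a pair of words, AACCCGC and then TGTCGG after 4 bases, with its first base at -66, counted from -1 at the base before the start. The letters TATATAA stood from -30 to -24. These words were chosen after the sequence had been seen, so they describe the locus and support nothing. At rpr-1 they do not overlap. Within 100 bp upstream the pair, counted by exact match alone, was found at 30 of 9132 noncoding genes, from -67 to -49 with a median of -58. It was found at 0.00501% of protein-coding genes. By biotype it was at 10.1% of snRNA genes, 2.6% of snoRNA genes, 0.103% of other noncoding RNA genes and 0 of the tRNA, rRNA and miRNA genes. TATATAA within 50 bp upstream was at 13.2% of snRNA genes, 0.708% of other noncoding RNA genes and 1.97% of protein-coding genes. Of the 30 genes, rpr-1 was the 1 with both. In the 201 bp windows around summits, both strands searched, the pair was in 1 of 169 IDR windows (0.592%) and 0.0767% of pooled windows. The 1 IDR window is that of rpr-1 itself, where the words were read, so these shares are no comparison of the lists.

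Sequences of genes on other chromosomes show these letters in place, 80 bases before and 20 bases from the start of each gene, read 5′ to 3′ along the gene from the RefSeq sequence of ce11, with the words in capitals. The genes sup-6 and sls-2.16 are the 2 others with the pair that also had an IDR summit within 250 bp. lfor-1 is a noncoding RNA gene with the pair and weak peaks. mrpr-1, the relative of rpr-1, has TATATAA and no exact match to the pair. The same holds for R07E5.16 (WBGene00014543, one of several loci of that symbol), an snRNA gene.
sup-6 (chrII:12944948-12945047, minus strand): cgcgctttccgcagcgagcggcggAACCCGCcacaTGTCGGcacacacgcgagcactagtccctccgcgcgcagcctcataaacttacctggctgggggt
sls-2.16 (chrIII:7141311-7141410, plus strand): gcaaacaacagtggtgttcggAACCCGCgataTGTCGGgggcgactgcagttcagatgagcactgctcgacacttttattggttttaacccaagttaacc
lfor-1 (chrII:14636074-14636173, minus strand): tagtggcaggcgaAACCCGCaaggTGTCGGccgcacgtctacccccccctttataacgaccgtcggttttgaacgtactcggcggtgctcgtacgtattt
mrpr-1 (chrII:7200153-7200252, plus strand): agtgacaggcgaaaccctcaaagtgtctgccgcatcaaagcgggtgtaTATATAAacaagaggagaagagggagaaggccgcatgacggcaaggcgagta
R07E5.16 (chrIII:10989599-10989698, plus strand): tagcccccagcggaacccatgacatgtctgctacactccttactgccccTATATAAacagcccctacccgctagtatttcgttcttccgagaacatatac
The first 3 hold the pair and no TATATAA, with its first base at -56, -59 and -67, the last of these 1 base farther from the start than in rpr-1. In mrpr-1 and R07E5.16 TATATAA stands at -32 to -26 and at -31 to -25, within 2 bases of its place in rpr-1. Both also hold letters close to the pair upstream of TATATAA. These are aaccctc and then tgtctg in mrpr-1, and aacccat and then tgtctg in R07E5.16, with 4 bases between, as at rpr-1. Only an exact match is absent there, and near matches were not counted.

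Signal at the other 29 genes with the pair was lower than at rpr-1 throughout. As rpr-1 was chosen for its signal and rank, nearly any set of genes would be lower, so nothing is read from this. IDR summits lay within 250 bp of 2 of them, sup-6 with a signal of 148.4 at rank 44 and sls-2.16, a spliced leader RNA gene, with 108.2 at rank 153. Both IDR summits lay past the end of the gene, unlike that of rpr-1. They stood 195 bp from the start of sup-6, which is 165 bp long, and 213 bp from that of sls-2.16, which is 109 bp long. The replicate 2 summit of sup-6 lay inside the gene, 156 bp from its start. The replicate 1 summit of sup-6, at 195 bp, and both replicate summits of sls-2.16, at 165 and 213 bp, lay past the end. The IDR summit at sls-2.16 also lay 42 bp into another noncoding gene, B0280.22. These are 2 of the 13 snRNA genes with the pair, where 3.1% of all snRNA genes had an IDR summit, and there was none at the 9 snoRNA genes or the 7 other noncoding RNA genes, where 9.83% and 0.67% of the biotype did. Relaxed summits lay there at 28 genes in the pooled list, 26 in replicate 1 and 24 in replicate 2, with median ranks of 2000, 2178.5 and 2817. Of all noncoding genes, 36.1%, 30.9% and 34.1% had such a summit. The snRNA genes with the pair had one in 13, 11 and 11 cases, where 55%, 45% and 52.7% of all snRNA genes did, and the snoRNA genes in 9, 8 and 8 cases, where 51.2%, 47.1% and 51.2% of all snoRNA genes did. The other noncoding RNA genes had one in 6, 7 and 5 cases, against 31.5%, 26.2% and 30.1% of that biotype. The ranks of sup-6 were 36 and 11 in replicates 1 and 2, those of sls-2.16 were 1022 and 50, and lfor-1 ranked 7086 in replicate 1 and had no peak in replicate 2. Strong peaks were also present without an exact match to the pair, in genes named after their values were seen. R07E5.16, with TATATAA and only letters close to the pair, ranked 12 and 35, ahead of all 29 in replicate 1. sls-2.4, a spliced leader RNA gene with no exact match to the pair or TATATAA, ranked 4 and 13, ahead of all 29 in replicate 1 and of all but sup-6 in replicate 2. Its IDR peak had a signal of 238.4 at rank 6, with the summit 86 bp into sls-2.4 and 14 bp into the noncoding gene R12E2.18. The replicate summits lay 130 and 175 bp past the sls-2.4 start, beyond its 110 bp, so the gene the peak belongs to is not settled. Some of these genes lie together and share a peak, such as T19C4.11 and T19C4.16, so they are not separate observations.

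**Figure D5:**
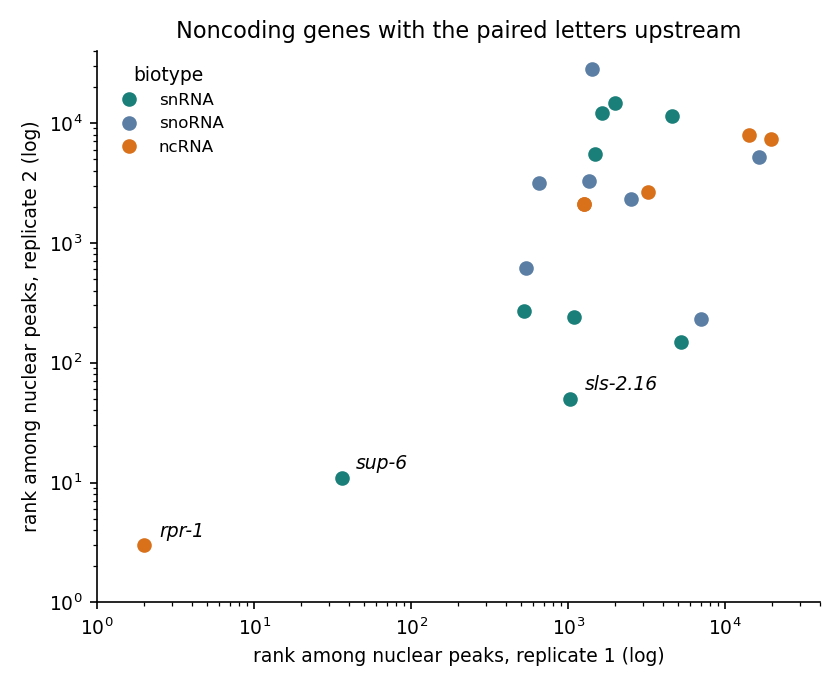
Rank among nuclear peaks in replicate 1 (horizontal, log axis) and replicate 2 (vertical, log axis) of the strongest relaxed peak within 250 bp of the 22 noncoding genes that have the pair of words upstream and a peak in both replicates, coloured by biotype, with 2 overlapping genes drawn at one point. rpr-1 lies at 2 and 3, sup-6 at 36 and 11, sls-2.16 at 1022 and 50, and the others at rank 522 or beyond in replicate 1.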

How the data were processed

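ChIP-seq peak lists of 2 libraries of 1 group were used, in 4 lists on ce11 and the IDR list on ce10, and 3 relaxed ce10 lists were not used here. The authors derived the relaxed lists from alignments of the libraries and a control, and the IDR lists from those, per the deposited text files. The aligner is not given in the sources used here, nor is the peak caller. The signal value and the −log10 q-value per peak are deposited by the authors in narrowPeak format; there are no p-values in the p column. Precision cannot be given, as no counts were used.

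Genes came from Ensembl release 115 and sequence from RefSeq, both of WBcel235 (ce11). Coordinates count from 1, and 0 peaks ended beyond their chromosome. No coordinate was converted between builds. Peaks at the locus are those that overlap a window of 1000 bp around either gene, and lists of genes use summits within 1000 bp of the gene body. Integrator genes are those named ints with a number, and RNase P and RNase MRP genes are rpr-1, mrpr-1, those named popl and those whose product or description names ribonuclease P or MRP. Named besides these were genes within 1000 bp, the 5 IDR peaks closest in replicate ranks, and the neighbouring IDR peaks by signal and position; genes with the pair of words were added after the data were seen. The members, lists and words were chosen with earlier results of these data known. No test was run, since 1 group gives no contrast. Functions were tested on simulated data. Python 3.11.15, numpy 2.4.6, pandas 2.3.3 and matplotlib 3.10.9 were used.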

Additional observations from a re-analysis of the deposited data

How the results depend on the processing

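Of 28 alternatives over 10 results, 25 stayed within the limits set for the value and 3 moved. The limits are not given here and were wide for the rank. Its main value was 9, the mean over both replicates with mitochondrial peaks counted, and alternatives of 2.5, 3 and 15 stayed within them. The count of 25 is therefore no measure of how little the values changed. Ranked by the deposited −log10 q with ties at their mean rank, the rpr-1 peak had a mean rank of 594.75 over both replicates (541.5 and 648), because 1082 and 1295 peaks share the smallest q-value. With 1 replicate left out, the rank by signal with mitochondrial peaks counted was 3 to 15, the summit lay 17 to 32 bp past the rpr-1 start, and it lay 859 to 874 bp past the nearer ints-8 start; the cause of the shift between replicates was not tested. A limit of 2000 bp added 1 replicate 1 peak, for 5 in all. In the ce10 IDR list of 288 peaks the strongest chromosome I peak had a signal of 298.3 and rank 2, and it was not matched to a gene. No paired analysis was possible because there is 1 group. Depth is unknown, so a missing weak peak, as at isoform a in replicate 2, says only that none was listed.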
